A study of Mus musculus with 36 samples.

Results

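The liver releases peptide hormones that tell other organs how much fat, sugar and protein the body has at hand, and the transcripts of 9 such genes were followed here over the day in mice with impaired thyroid hormone receptor beta (THRB) and their controls. The genes are *Fgf21*, *Angptl4*, *Angptl8*, *Fst*, *Inhbe*, *Gdf15*, *Enho*, *Leap2* and *Fetub*. The rule that picks them uses gene names and no measured value, although the set was drawn up with earlier results of these data known. They are 9 of 54532 genes in the count table. All 9 were among the 17994 genes with enough counts to be tested, a sum of at least 100 over the 36 libraries.

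Livers came from adult male mice 2 to 3 months old on a C57Bl/6NCrl background, fed chow ad libitum and housed under 12 h of light and 12 h of darkness. The control group, called WT in the labels and THRB WT here, consisted of THRB+/- mice, so that every control carried 1 copy of the altered allele. The knockout group (KO, here THRB KO) consisted of THRB-/- mice of the line B6.129S1-Thrbtm1Df/J, in which DNA binding by THRB is impaired throughout the body, so that a change in liver cannot be told apart from an effect of the loss in other organs. Mice were killed every 4 h, from ZT2 to ZT22 (hours since the lights came on), with 3 different mice per genotype and time and 1 poly-A selected library per liver. Each mouse was sampled once, so a time course runs across mice and not within them.

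Hepatokines act on their targets through a few known routes. FGF21 is made by the fasting and amino acid-starved liver under PPARalpha and ATF4 and signals through FGFR1 with beta-Klotho. ANGPTL4 and ANGPTL8 restrain lipoprotein lipase, the enzyme that unloads triglyceride from lipoproteins, the former being typical of fasting and the latter of feeding. Activin E, encoded by *Inhbe*, and GDF15 belong to the TGF-beta superfamily, and follistatin (*Fst*) binds activins. LEAP2 blocks the ghrelin receptor, adropin is the product of *Enho*, and fetuin B (*Fetub*) is an abundant plasma protein linked to insulin resistance. Mice eat mostly in the dark, so a liver sampled late in the light phase has taken up less food than a liver sampled in the dark.

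The summed counts per library ranged from 29063273 to 42530551 with medians of 33540565 (THRB WT) and 34190848 (THRB KO). At this depth the lowest count of any member in any library was 11, for *Fgf21*, and its counting error is correspondingly large. The 6 hepatocyte markers summed to between 64344 and 98172 CPM in every library, whereas the 4 pancreas markers summed to at most 0.0877 CPM (counts relative to a library's total, scaled by the TMM method) and the 3 adipocyte markers to at most 0.235 CPM. Other cell types varied more between livers. The 7 Kupffer cell and macrophage markers reached 465 CPM in replicate b of THRB WT at ZT18, against a THRB WT median of 174. The 5 stellate cell markers ran from 101 to 291 CPM. *Thrb* itself was counted at 28.9 ± 3.69 CPM in THRB WT and 31.5 ± 2.70 CPM in THRB KO (SD, n = 18 each), which gave no check of the labels, as gene counts do not resolve the altered exon. *Dio1*, a gene induced by thyroid hormone through THRB, was lower in THRB KO, at 48.3 ± 12.3 against 94.4 ± 32.0 CPM (SD, n = 18 each, log2 fold change -0.97, edgeR adjusted p = 4.19e-05). By their 16 clock genes, 35 of 36 libraries lay nearest the mean of their labelled time, and replicate c of THRB WT at ZT18 lay nearest ZT22. In bulk liver, fewer cells of a type and less RNA per cell cannot be told apart.

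Because *Fgf21* and *Angptl8* had the largest daily swings of the members in THRB WT, given further on, the bases just upstream of their start sites are shown as the reference gives them (RefSeq promoter windows, build GRCm38.p6). The *Fgf21* stretch is chr7:45615491-45615740 on the minus strand and the *Angptl8* stretch is chr9:21835260-21835509 on the plus strand. Both are printed 5′ to 3′ and end at the base before the start site.
*Fgf21*: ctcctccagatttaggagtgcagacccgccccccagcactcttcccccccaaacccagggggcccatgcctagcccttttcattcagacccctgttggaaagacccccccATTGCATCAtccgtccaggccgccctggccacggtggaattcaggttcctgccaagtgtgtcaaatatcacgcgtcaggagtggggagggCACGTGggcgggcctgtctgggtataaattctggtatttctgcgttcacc
*Angptl8*: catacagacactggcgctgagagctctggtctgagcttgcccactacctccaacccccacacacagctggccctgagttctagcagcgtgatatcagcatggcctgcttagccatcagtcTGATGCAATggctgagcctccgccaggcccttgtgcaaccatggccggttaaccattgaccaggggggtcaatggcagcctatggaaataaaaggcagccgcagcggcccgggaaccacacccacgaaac

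Capitals mark matches on either strand to 2 of 4 motifs searched after the values had been seen. TGATGCAAT, a C/EBP-ATF element of the kind bound by ATF4, begins 130 bases before the *Angptl8* start and, as its reverse complement ATTGCATCA, 140 bases before the *Fgf21* start. It was present in 0.192% of all 32851 windows of 300 bases in the reference table. CACGTG, the E-box bound by the clock factors CLOCK and BMAL1 and by other factors, begins 50 bases before the *Fgf21* start and occurred in 7.15% of windows. 1 of the 2 windows of *Gdf15* also held CACGTG. The D-box TTATGTAA (0.938% of windows) and the cAMP response element TGACGTCA (1.79%) were found in none of the 7 windows, which covered 5 members (*Fgf21*, *Angptl8*, *Inhbe*, *Gdf15* and *Fetub*). A match describes these letters and is not evidence of binding in these livers.

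The 9 transcripts spanned a wide range of levels. Per kb of exon, which allows genes to be compared, the median over the 36 libraries was 231 CPM per kb for *Fetub*, 148 for *Angptl8*, 126 for *Leap2*, 34.5 for *Enho*, 16.3 for *Angptl4*, 10.9 for *Inhbe*, 3.27 for *Gdf15*, 1.58 for *Fgf21* and 1.10 for *Fst*. All neighbours in this order overlapped in their ranges over libraries, and *Fgf21* alone ran from 0.297 to 32.4 CPM per kb, across the levels of *Gdf15*, *Inhbe* and *Angptl4*. The genes lie on 9 chromosomes of GRCm38, *Fgf21* on 7 from 45613886 to 45615490, *Angptl4* on 17 from 33773750 to 33781575, *Angptl8* on 9 from 21835510 to 21837347, *Fst* on 13 from 114452290 to 114458951 and *Inhbe* on 10 from 127348857 to 127354411. *Gdf15* lies on 8 from 70629393 to 70632456, *Enho* on 4 from 41638144 to 41640324, *Leap2* on 11 from 53422181 to 53423170 and *Fetub* on 16 from 22918334 to 22939778. The libraries are not stranded, and 2 members share exon bases with genes on the opposite strand, *Enho* with *Dnaic1* over 15 bases and *Fst* with Gm47040 over 115 bases, so a part of their reads cannot be assigned. *Angptl8* lies within *Dock6* on the opposite strand but shares no exon base with it.

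**Figure D1:**
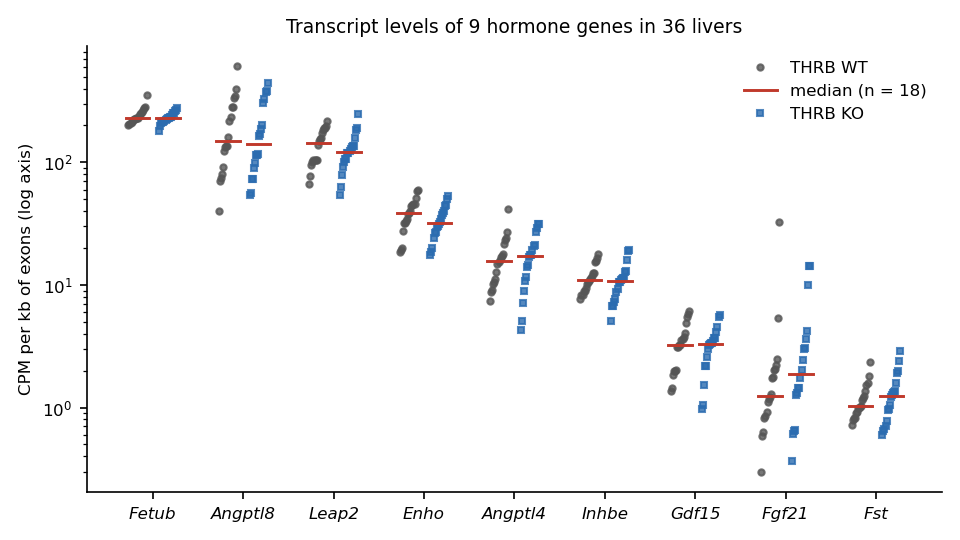
Levels of the 9 hormone genes in CPM per kb of exon on a log axis, with THRB WT livers as grey circles, THRB KO livers as blue squares, 18 of each, and the median of each genotype as a red bar. *Fetub* has the narrowest spread of the 9 and *Fgf21* the widest.

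The spread between mice of the same genotype and time also differed between genes. Within groups the SD of log2 CPM was 1.01 in both genotypes for *Fgf21*, against 0.21 in THRB WT and 0.14 in THRB KO for *Fetub*. *Angptl4* had 0.52 in THRB WT and 0.85 in THRB KO, and *Angptl8* 0.53 and 0.90. *Enho* went the other way, with 0.38 in THRB WT and 0.23 in THRB KO. These differences in spread were not tested. The replicates are separate mice, so the tests that follow measure the spread between animals.

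The first comparison asked whether loss of THRB changed the level of any hormone transcript over the whole day. It did not pass the test for any of the 9 members (0 of 9, edgeR quasi-likelihood test with sampling time in the model, Benjamini-Hochberg adjustment over all genes), where 171 of 17994 genes or 0.950% passed. At an unadjusted p under 0.05 it was 1 of 9 members and 2169 of all genes, and DESeq2 called 0 of 9 members as well. The median log2 fold change of the members (THRB KO over THRB WT) was -0.05, against -0.00112 for all genes tested.

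*Enho* came nearest. Its THRB WT livers had 23.5 to 74.8 CPM with a median of 48.7, and its THRB KO livers 22.3 to 67.3 CPM with a median of 40.9, so the genotypes overlapped over nearly their whole range. The log2 fold change was -0.19 (95% confidence interval -0.38 to -0.00332, edgeR adjusted p = 0.405). *Fgf21* had the largest estimate and the least certain. It ran from 0.283 to 30.9 CPM in THRB WT with a median of 1.19, and from 0.350 to 13.5 CPM in THRB KO with a median of 1.79. The log2 fold change of 0.48 carried an interval of -0.29 to 1.24 (adjusted p = 0.671), and it was -0.18 without the 12 mice of letter c.

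The other intervals bound how large a difference these mice could have hidden. *Fetub* was the tightest, at 477 ± 71.4 CPM in THRB WT and 453 ± 49.0 CPM in THRB KO (SD, n = 18 each) with a log2 interval of -0.19 to 0.05. *Leap2* (-0.36 to 0.10), *Inhbe* (-0.36 to 0.11) and *Fst* (-0.24 to 0.44) allowed moderate changes. *Angptl4* (-0.37 to 0.45), *Gdf15* (-0.46 to 0.35) and *Angptl8* (-0.54 to 0.45) were centred close to 0, and for these 3 the sign of the estimate depended on which mice or settings were used.

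**Figure D2:**
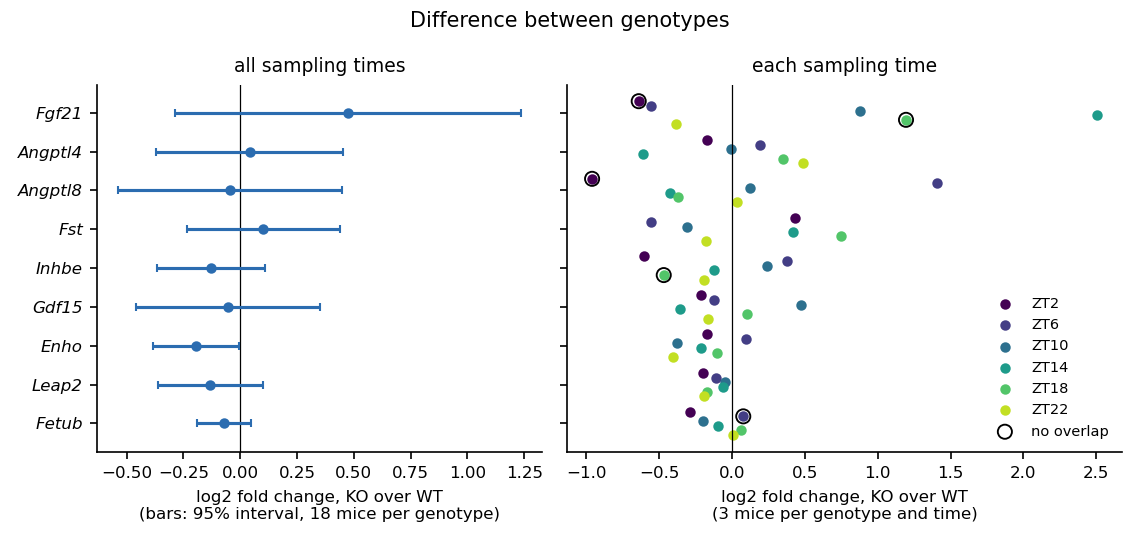
Log2 fold changes of THRB KO over THRB WT for each hormone gene. On the left, over all sampling times with 95% confidence intervals, each but that of *Enho* crosses 0. On the right, colours give the estimate at each sampling time and open rings mark the 5 places where the 3 mice of each genotype did not overlap.

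The same comparison was made at each sampling time, 3 mice against 3, in a model that shares the spread over all groups. No member passed at any time. Few genes of any kind did, 0.0278% at ZT2, 0.0111% at ZT6, 0.0167% at ZT10 and at ZT14, and 0.0222% at ZT18 and at ZT22. At an unadjusted p under 0.05 there were 3 cases, *Fgf21* at ZT14, *Angptl8* at ZT6 and *Inhbe* at ZT2, and DESeq2 also called 0 members at each time. These 3 are of 54 comparisons of member and time, a share close to that of all genes, of which 741 to 977 of 17994 were under the same p at each time. They are described here for their values and are not results about the members.

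The largest of these was *Fgf21* at ZT14, early in the dark phase. The THRB WT livers had 0.814, 1.96 and 0.556 CPM and the THRB KO livers 1.91, 3.44 and 13.5 CPM. The log2 fold change was 2.50 (edgeR adjusted p = 0.872), and the genotypes overlapped narrowly, with the lowest THRB KO mouse just under the highest THRB WT mouse. The 13.5 CPM belonged to replicate c, which also had the lowest *Angptl4* (14.1 CPM) and the lowest *Leap2* (28.9 CPM) of all THRB KO livers. Without the mice of letter c the log2 fold change at ZT14 was 0.95.

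The direction of the *Fgf21* estimate varied with time. At ZT2 the THRB KO livers (1.25, 1.36 and 1.21 CPM) lay below all THRB WT livers (2.36, 1.94 and 1.67 CPM). At ZT18 the order was the opposite, with 1.66, 2.32 and 3.97 CPM in THRB KO and 0.596, 1.22 and 1.65 CPM in THRB WT. Neither difference passed the test, with log2 fold changes of -0.64 (adjusted p = 0.929) and 1.19 (adjusted p = 0.993). Genotypes that do not overlap were common, at 12.9% of all genes at ZT2 and 10.4% at ZT18.

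*Angptl8* had the next largest contrast, in the light phase. At ZT6 the THRB WT livers had 79.4, 34.5 and 60.5 CPM and the THRB KO livers 48.6, 149 and 264 CPM, a log2 fold change of 1.41 (edgeR adjusted p = 0.9996). Replicate a of THRB KO was within the THRB WT range and the other two were above it. At ZT2 all THRB KO livers (98.8, 63.0 and 63.6 CPM) were below all THRB WT livers (205, 118 and 115 CPM), at a log2 fold change of -0.96 (adjusted p = 0.864). *Inhbe* was the third case, at ZT2, with 83.9, 47.7 and 43.8 CPM in THRB WT and 49.4, 38.9 and 27.1 CPM in THRB KO (log2 fold change -0.60, edgeR adjusted p = 0.864).

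The genotypes of *Inhbe* were also apart at ZT18, where the 3 THRB KO livers (55.9, 41.0 and 35.6 CPM) lay under the 3 THRB WT livers (60.1, 66.7 and 56.3 CPM). *Fetub* separated at ZT6 by a small step, 458 to 492 CPM in THRB KO above 447 to 454 CPM in THRB WT, where 8.41% of all genes did not overlap. No member was apart at ZT10, ZT14 or ZT22, where 7.95%, 10.2% and 9.94% of all genes were. Of the 54 comparisons of member and time, 5 were without overlap, a share close to that of all genes.

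The second comparison asked which hormone transcripts follow a 24 h rhythm in each genotype, with a sine and cosine of 24 h period fitted to the 18 livers. In THRB WT, 5 of 9 members passed (*Fgf21*, *Angptl4*, *Angptl8*, *Enho* and *Leap2*), where 33.0% of all genes did. In THRB KO, 3 of 9 passed (*Inhbe*, *Enho* and *Leap2*), where 28.9% of all genes did. Passing in only 1 genotype does not show a difference between them, and the test of that difference is given further on. The standard errors of fitted peaks and amplitudes come from a separate fit of both genotypes with 1 shared residual spread. They assume an equal spread, whereas that of *Angptl4* and *Angptl8* within groups was larger in THRB KO. Leaving out replicate c of THRB WT at ZT18 left the 5 calls in THRB WT, with adjusted p between 0.000487 and 0.00646.

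**Figure D3:**
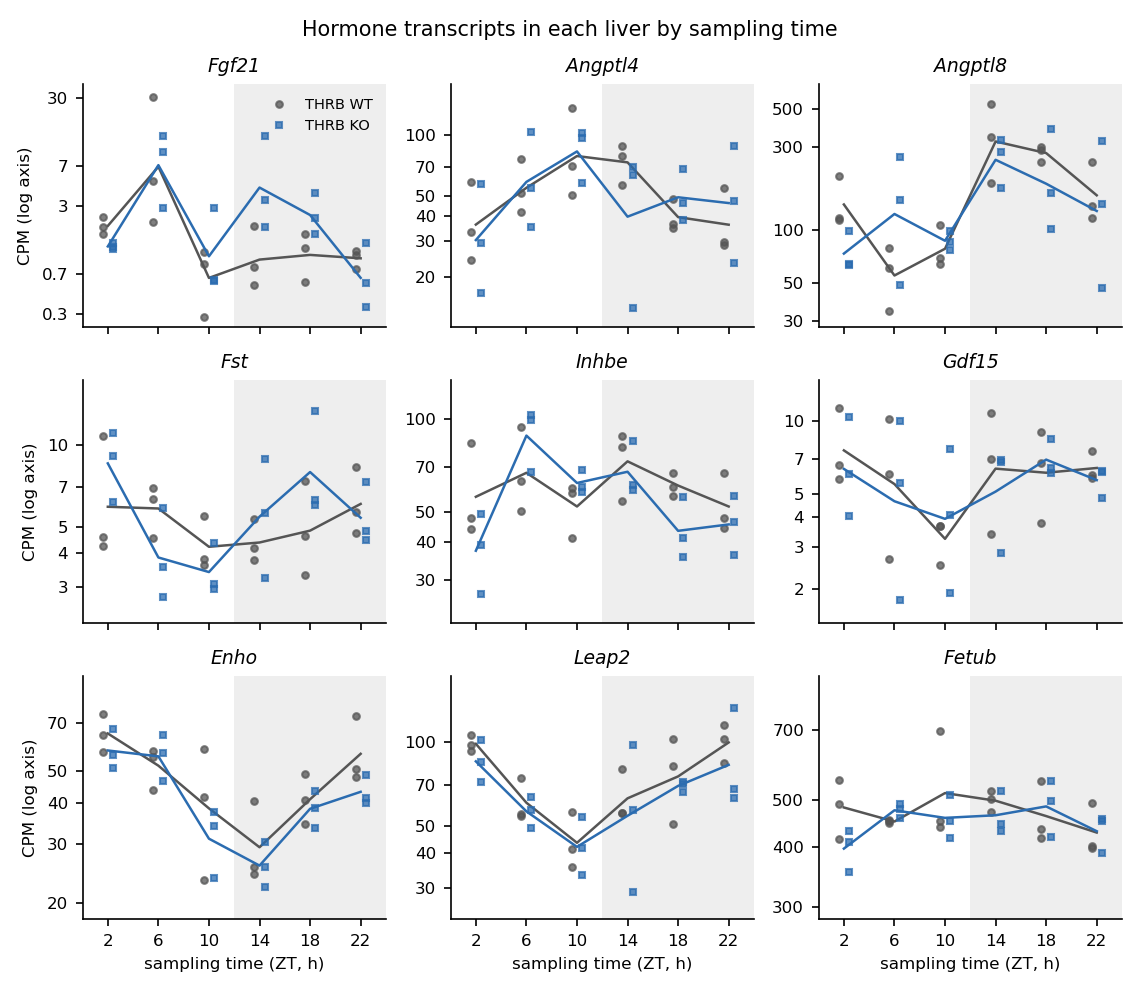
CPM of each hormone gene on a log axis against sampling time in h, 1 point per liver, with THRB WT as grey circles, THRB KO as blue squares, lines through the geometric mean of the 3 mice, and grey shading for the dark phase. *Enho* and *Leap2* show parallel curves in both genotypes, while *Fgf21* in THRB KO has a second high point at ZT14.

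*Leap2* and *Enho* were rhythmic in both genotypes with almost the same timing. *Leap2*, whose product opposes ghrelin, was highest on average at ZT22 and ZT2 and lowest at ZT10. In THRB WT it had 92.1 to 106 CPM at ZT2 and 35.5 to 55.8 CPM at ZT10, with no overlap between these times. In THRB KO the same times had 71.8 to 101 and 33.2 to 53.5 CPM, also without overlap. The fitted peak was at 22.7 ± 0.845 h in THRB WT and 22.8 ± 0.970 h in THRB KO (± standard error), with a peak-to-trough ratio of 2.19 and 1.98. In THRB WT the adjusted p from edgeR was 0.000371, in THRB KO 0.0265. The latter call was lost under 7 of 28 alternatives, among them without 3 single mice (ZT10 b, ZT10 c and ZT22 c, adjusted p = 0.0685, 0.0599 and 0.103) and without the mice of letter b or c (adjusted p = 0.126 and 0.435).

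*Enho*, which encodes adropin, peaked shortly after lights on. In THRB WT the ZT2 livers had 74.8, 57.1 and 64.7 CPM and the ZT14 livers 40.7, 24.5 and 25.6 CPM. In THRB KO these times had 56.3, 51.2 and 67.3 CPM and 22.3, 25.6 and 30.4 CPM. Fitted peaks lay at 1.56 ± 0.732 h and 2.11 ± 0.706 h, amplitudes at 0.53 and 0.55 on the log2 scale, and adjusted p from edgeR at 0.00264 and 0.000158. These calls held under all 28 alternatives in each genotype. As 15 exon bases are shared with *Dnaic1*, the gene most like *Enho* over the libraries (r = 0.88), the part of shared reads in this pattern was not tested.

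*Angptl8*, the feeding-induced inhibitor of lipoprotein lipase, had the largest fitted peak-to-trough ratio of the members in THRB WT, with *Fgf21* next at 4.30. Means at single times in THRB WT spanned a wider fold range for *Fgf21*, from 0.757 CPM at ZT10 to 12.7 CPM at ZT6. Those of *Angptl8* ran from 58.1 CPM at ZT6 to 354 CPM at ZT14. Its livers had 34.5 to 79.4 CPM at ZT6, 188 to 531 CPM at ZT14 and 246 to 302 CPM at ZT18, so that the dark phase values were all above the light phase values of ZT6 and ZT10. The peak-to-trough ratio was 4.94 and the fitted peak 17.8 ± 0.868 h (adjusted p = 0.000850 from edgeR, at most 0.0219 under any of 28 alternatives). In THRB KO the ratio was 2.58 and the peak 15.9 ± 1.46 h, and the test was not passed (adjusted p = 0.185). There the ZT6 livers spread from 48.6 to 264 CPM and the ZT22 livers from 46.6 to 325 CPM. Without replicate c of THRB KO at ZT6, the 264 CPM liver, the rhythm in THRB KO passed as well (adjusted p = 0.0291).

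*Angptl4*, the fasting-induced counterpart, had an earlier fitted peak than *Angptl8* in both genotypes, a difference that was not tested. In THRB WT it had 50.9 to 137 CPM at ZT10 and 28.9 to 55.1 CPM at ZT22, which overlapped narrowly, with a fitted peak at 10.9 ± 1.37 h (adjusted p = 0.00435 from edgeR, at most 0.0498 over 28 alternatives). In THRB KO the peak lay at 10.4 ± 2.27 h with an amplitude of 0.39 ± 0.23 (log2, standard error) against 0.64 ± 0.23 in THRB WT, and the test was not passed (adjusted p = 0.437). The lowest THRB KO liver, at 14.1 CPM, was replicate c of ZT14, and the amplitude in THRB KO was 0.59 without it.

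*Fgf21* in THRB WT rested on ZT6. Its 3 livers there had 5.14, 30.9 and 2.13 CPM, and the highest THRB WT liver at any other time had 2.36 CPM. The fitted peak was at 4.35 ± 1.64 h with a log2 amplitude of 1.05 ± 0.45 (adjusted p = 0.00620 from edgeR). Without the liver at 30.9 CPM, replicate b of ZT6, the amplitude was 0.67 and the adjusted p was 0.0799. In THRB KO high values stood at ZT6 (2.90, 13.5 and 9.49 CPM) and again at ZT14 (1.91, 3.44 and 13.5 CPM), with 0.614, 0.623 and 2.87 CPM at ZT10 between them. A single 24 h wave did not pass there (adjusted p = 0.128, fitted peak 10.4 ± 2.28 h), whereas a test that lets each sampling time have its own mean did (adjusted p = 0.00790).

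*Inhbe* passed in THRB KO alone. There the ZT6 livers had 67.4, 103 and 99.9 CPM and the ZT2 livers 49.4, 38.9 and 27.1 CPM, and the curve peaked at 9.58 ± 1.08 h with a ratio of 1.91 (adjusted p = 0.0213 from edgeR). In THRB WT the ratio was 1.17 and the adjusted p 0.754, with ZT14 and ZT6 highest on average but overlapping every other time. The call in THRB KO was lost without the mice of letter a (adjusted p = 0.0843) or b (adjusted p = 0.165), and *Inhbe* in THRB WT passed without those of letter a (adjusted p = 0.0224).

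*Fst*, *Gdf15* and *Fetub* passed in neither genotype. For *Fst*, the activin antagonist, the THRB KO means were highest at ZT2 (8.77 CPM, livers from 6.18 to 11.1) and ZT18 (8.50 CPM, livers from 5.98 to 13.2), which overlapped, and lowest at ZT10 (3.46 CPM, livers from 2.94 to 4.36), with a fitted peak at 21.2 ± 1.27 h (adjusted p = 0.0913), and the test was passed by DESeq2 (adjusted p = 0.0392). *Gdf15*, the stress hormone that acts on hindbrain appetite circuits, had its lowest THRB WT mean at ZT10 (2.52, 3.66 and 3.67 CPM) but livers from 2.67 to 10.2 CPM at ZT6 (adjusted p = 0.434). *Fetub* was flat, with peak-to-trough ratios of 1.14 (THRB WT) and 1.15 (THRB KO).

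**Figure D4:**
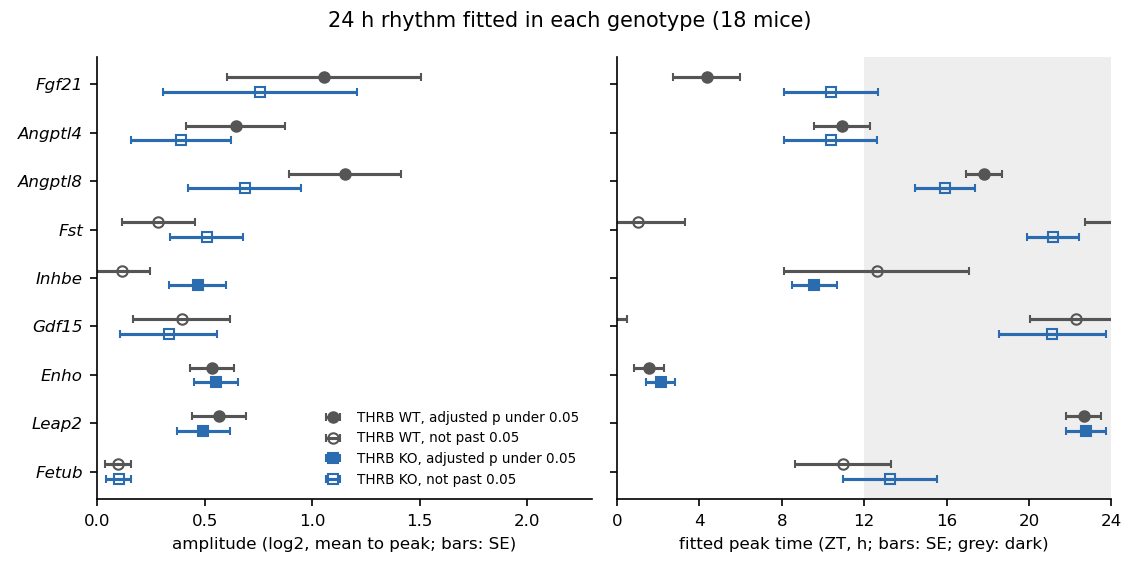
Amplitude (left, log2 units from mean to peak) and fitted peak time (right, h) of each hormone gene with standard errors, THRB WT as grey circles and THRB KO as blue squares, filled where the adjusted p of the rhythm was under 0.05. *Enho* and *Leap2* are filled in both genotypes and their peak times coincide within the standard errors.

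The third comparison tested the difference in rhythm between genotypes directly. No member passed (0 of 9) and neither did any other gene (0% of 17994 by edgeR and 0 genes by DESeq2), although 553 genes had an unadjusted p under 0.05. *Fgf21* was the only such member (unadjusted p = 0.0365 from edgeR, adjusted p = 1). Its fitted peak was 6.02 h later in THRB KO with an interval of 0.294 to 11.7 h. The 24 h wave in THRB KO had not passed its own test, so this interval does not establish a shift. Mean CPM was highest at ZT6 in both genotypes (12.7 in THRB WT and 8.63 in THRB KO). With single livers left out, the fitted peak ran from 3.26 to 5.39 h in THRB WT and from 8.87 to 12.0 h in THRB KO. For *Leap2* the difference in peak was 0.118 h (-2.51 to 2.74 h) and for *Enho* 0.55 h (-1.53 to 2.63 h), intervals that leave room for shifts of about the sampling interval or less. For *Angptl8* it was -1.89 h (-5.37 to 1.58 h), with an amplitude difference of -0.47 (-1.22 to 0.29, log2). The amplitude of *Inhbe* was 0.35 higher in THRB KO (-0.03 to 0.73). A broader test of any genotype by time interaction also called 0 of 9 members and 0% of genes by edgeR and 0 genes by DESeq2, with 484 at an unadjusted p under 0.05 and *Fgf21* at 0.0510.

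**Figure D5:**
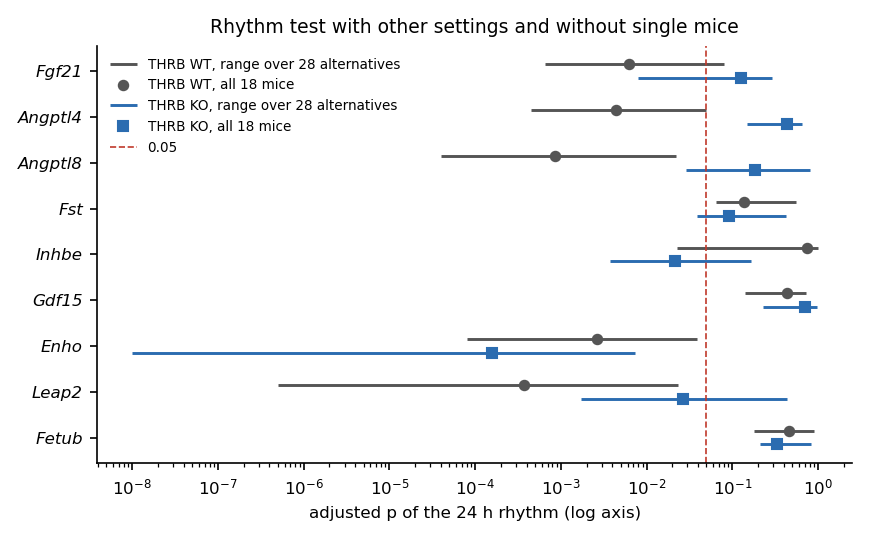
Adjusted p of the 24 h rhythm on a log axis for each hormone gene. Points give the test on all 18 livers of a genotype, lines the range over 28 alternatives (other settings, or single livers or letters left out), and the dashed line 0.05. The range lies wholly below 0.05 for *Angptl4*, *Angptl8*, *Enho* and *Leap2* in THRB WT and for *Enho* in THRB KO.

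Genes around the hormones were counted in lists, in the main setting only, where 0.950% of all genes passed for genotype. Among 18 receptor and partner genes, 16 were tested (*Ghsr*, the ghrelin receptor, and *Gfral*, the GDF15 receptor, had too few counts) and 1 was lower in THRB KO. This was *Fgfr1*, the FGF21 receptor, at 4.27 CPM in THRB KO against 6.16 CPM in THRB WT on average (log2 fold change -0.51, adjusted p = 0.0249 from edgeR). For *Klb*, its co-receptor beta-Klotho, the log2 fold change was 0.19 (edgeR adjusted p = 0.349). The list's median was 0.04, against -0.00112 for all genes. Rhythms passed for 7 of the 16 in THRB WT and 9 in THRB KO.

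Of the 11 targets of glucagon, cAMP and FOXO1, 1 was higher in THRB KO, against 0.950% of all genes that passed in either direction. It was *Foxo1* itself, by a log2 fold change of 0.19 (adjusted p = 0.0215 from edgeR). Whether the calls for *Fgfr1* and *Foxo1* hold under the alternatives was not tested. No gene of the other 6 lists passed in either direction. These were 15 family relatives (such as *Angptl1*, -0.29), 12 other secreted factors (*Igf1*, -0.13, and *Selenop*, 0.16), 14 PPARalpha and fasting targets (*Cpt1a*, 0.21), 12 lipogenic genes (*Srebf1*, -0.12, and *Fasn*, 0.05), 12 genes of the integrated stress response (*Atf4*, -0.08, and *Atf5*, 0.09) and 16 clock genes (*Arntl*, 0.11, and *Clock*, 0.02), with log2 fold changes in brackets. Their medians lay between -0.08 and 0.07.

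Rhythms in these lists are set against the 33.0% (THRB WT) and 28.9% (THRB KO) of all genes that passed. All 16 clock genes passed in both genotypes, and 8 of 12 lipogenic genes in THRB WT against 9 of 12 in THRB KO. Among the PPARalpha and fasting targets 7 of 14 and 9 of 14 passed, among the stress response genes 8 of 12 and 6 of 12, among the glucagon targets 5 of 11 and 4 of 11, among the relatives 5 of 15 in each genotype, and among the other secreted factors 3 of 12 and 4 of 12. For the relatives and the other secreted factors these shares are close to those of all genes. No listed gene differed in rhythm between genotypes.

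Over the 36 libraries each member was compared with 12640 genes of at least 1 CPM on average. The points share sampling time and depth, so the correlations of log2 CPM that follow are descriptions. *Fgf21* was most like 2010003K11Rik (r = 0.74), *Cars* (0.73), a cysteinyl-tRNA synthetase, and *Eif2s2* (0.71), a translation initiation factor subunit. It was positively correlated with 10 of 11 stress response genes compared (median r = 0.38, against 0.0108 for all genes). The highest of these was *Asns* at 0.57, while *Atf4* had 0.03 and *Ddit3* had -0.11. *Angptl8* was most like *G0s2* (0.80), an inhibitor of triglyceride lipase, Gm15344 (0.78) and *Mid1ip1* (0.76), an activator of acetyl-CoA carboxylase, and was positively correlated with 12 of 12 lipogenic genes (median r = 0.28). After removal of the group means the latter median was -0.09, whereas that of *Fgf21* with the stress response genes was 0.21. This was not particular to *Fgf21*, as the same within-group median was 0.26 for *Fetub* and 0.14 for *Enho*. For the other members it ran from -0.21 (*Angptl4*) to 0.08 (*Gdf15*). With the lipogenic genes, *Leap2* had the highest within-group median of the members, at 0.54 and positive for 12 of 12.

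*Angptl4* lay nearest *Nfkbia* (0.74), *Kcnk5* (0.74) and 1810055G02Rik (0.71), and *Leap2* nearest *Psen2* (0.89), *Paxx* (0.89) and *Eipr1* (0.87). *Fetub* followed *Pfdn5* (0.82) and the ribosomal protein genes *Rps18* (0.79) and *Rpl7* (0.79), and *Enho*, besides *Dnaic1*, followed *Mbl1* (0.79) and *Fgg* (0.79). *Gdf15* was most like *Plk2* (0.69), *Tuba1a* (0.67) and *Ms4a4d* (0.65), *Inhbe* like *Fbxo30* (0.68), *Eed* (0.66) and *Lsm1* (0.66), and *Fst* like *Stard13* (0.72), *Rnd1* (0.65) and *Frat1* (0.63). After removal of the group means, r was only 0.19 for *Enho* with *Fgg* and 0.34 for *Inhbe* with *Lsm1*. The other neighbours of the members kept 0.47 (*Fst* with *Frat1*) to 0.83 (*Leap2* with *Psen2*). Among pairs of members, *Inhbe* and *Fst*, an activin subunit and the activin antagonist, had r = -0.60. Within groups the strongest pair was *Angptl8* with *Inhbe* at r = 0.73 (0.44 with the group means kept).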

How the data were processed

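Liver RNA of 36 mice was sequenced by the authors as non-directional, poly-A selected paired-end libraries. Per the submitters' notes and the study's methods, reads were mapped to GRCm38 (mm10) with HISAT2 and counted per gene with featureCounts, and the authors deposited these counts as whole numbers without normalization. Versions and the handling of reads with several matches are not given in the sources used here. Summed counts of 29063273 to 42530551 per library bound the counting error, and the spread between mice adds to it.

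Groups were taken from the labels. A gene was kept where its counts summed to 100 or more, as in the study. Counts were normalized by TMM and tested with edgeR 4.0.16 (glmQLFit and glmQLFTest, R 4.3.3, limma 3.58.1), with p-values adjusted by the Benjamini-Hochberg procedure over all 17994 genes at a threshold of 0.05. Genotype was tested with sampling time as a factor and at each time in a model of group means, rhythms by sine and cosine terms of 24 h period, and differences in rhythm by their interaction with genotype. Levels are CPM on TMM library sizes. Amplitudes and peak times, with standard errors by the delta method, come from least squares on log2 CPM with a prior count of 2, and intervals are 95% intervals. CPM per kb uses the exon length given in the deposited table. The scripts were tested on simulated counts with known changes.

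Alternatives were DESeq2 1.42.0 or only its size factors, filterByExpr or no filter on counts, robust estimation, no term for time, the RNA integrity number as a covariate, sampling time as a factor, mice of the same letter as a block, and leaving out letters or single livers. Leaving out single livers for the rhythms was added after the data had been seen. The members and gene lists were chosen with earlier results of these data known. Besides the members, genes named are the 3 most correlated with each member, *Thrb* and *Dio1*, and from each list the genes past the threshold (at most 4) or, with none, its first 2. *Klb*, *Asns*, *Ddit3*, *Ghsr*, *Gfral* and the motifs were added after values were seen. Promoter sequences are from RefSeq, matched by symbol for 5 of 9 members, and exon overlaps from GENCODE (GRCm38). The lipidomics and cell culture of the study were not analysed here.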

Additional observations from a re-analysis of the deposited data

Results flagged for a closer look

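*Fgf21* was the only member whose genotypes lay apart at 2 sampling times in opposite directions. All THRB KO livers were below all THRB WT livers at ZT2 (log2 fold change -0.64) and above them at ZT18 (log2 fold change 1.19). The gaps were small, as the nearest livers had 1.36 (THRB KO) and 1.67 CPM (THRB WT) at ZT2. At ZT18 they had 1.66 and 1.65 CPM, and each of these livers held 50 to 57 *Fgf21* reads. Of all genes, 12.9% did not overlap at ZT2 and 10.4% at ZT18. The contrast between these 2 times was not tested on its own. The test of any genotype by time interaction gave an unadjusted p of 0.0510 and that of a different 24 h rhythm 0.0365 (edgeR, adjusted p = 0.9999 and 1). Groups held 3 mice, or 18 over all times, so no group had a size for which a lone liver was tested as an outlier.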

How the results depend on the processing

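No member passed the test of genotype, over all times or at any time, under any alternative run. The count of rhythmic members ranged from 4 to 6 over the letters and single livers left out in THRB WT (main count 5) and from 1 to 4 in THRB KO (main count 3), the 1 being *Enho* without the mice of letter b. Of 1298 comparisons with an alternative, 1258 stayed the same, 20 reversed, 11 lost and 8 gained significance, and 1 count moved. Of the 1298, 390 were added after the data had been seen. Many lay far from the threshold, as the lowest adjusted p of a member was 0.743 for a difference in rhythm and 0.961 for the interaction. The tally therefore does not measure how firm the calls that passed were. For a gene, the same meant the same side of the threshold and, for fold changes, the same direction. For a count of members it meant close to the main count, so such a count could still differ by a member. The count that moved was that of 1 rhythmic member just given. The reversals were all in the genotype effect over all times, in estimates that had not passed. At single times, fold changes entered this tally only for the cases of member and time described above. Those cases were picked by their p or lack of overlap, so the tally does not cover reversals in the other estimates at single times. With livers or letters left out, the log2 fold change over all times ranged from -0.13 to 0.20 for *Angptl4* and from -0.19 to 0.0600 for *Angptl8*. For *Gdf15* it ranged from -0.21 to 0.14 and for *Fgf21* from -0.18 to 1.03. The cause was not tested. Gains in THRB KO not given above were *Fgf21* without replicate a or b of ZT10 (adjusted p = 0.0462 and 0.0467) and *Fst* without replicate b of ZT14 or of ZT22 (0.0481 and 0.0419).

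Mice of the same letter were not paired by the labels. Their deviations from the group means correlated at a median of 0.204 (-0.0611 to 0.395, over 0.1 for 16 of 18 pairs), and 33 of 36 livers correlated best with their own letter. With the replicate block 0 members passed for genotype, 5 in THRB WT and 3 in THRB KO for rhythm, and the log2 fold change of *Angptl4* was -0.0252. Over all genes the count for genotype was 387 with this block and 306 with DESeq2 against 171, 65 without a term for time, and 40 to 81 without the mice of a letter. At single times DESeq2 called up to 19 genes and the block up to 9, against 2 to 5. The lowest counts per library were those of *Fgf21* (from 11), *Gdf15* (from 60) and *Fst* (from 91), so counting error weighs most on these members. Its share in their spread between mice was not tested.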
